A study of Homo sapiens with 52 samples.

Results

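Nuclear-encoded respiratory chain subunits were followed through 4 sequencing assays in HEK293T cells. This line descends from human embryonic kidney cells and carries SV40 large T antigen. The members are 10 transcripts matched by transcript identifier with the version removed, out of 226882 identifiers in the count table. UQCRFS1 (ENST00000304863.6), CYC1 (ENST00000318911.5) and UQCRC1 (ENST00000203407.6) belong to complex III. COX4I1 (ENST00000253452.6), COX5A (ENST00000322347.11), COX5B (ENST00000258424.2), COX6A1 (ENST00000229379.3), COX7C (ENST00000247655.4) and COX8A (ENST00000314133.4) belong to complex IV, and ATP5F1B (ENST00000262030.8) to complex V. The symbols were given with the identifiers and not read from the table. Each member is 1 transcript, and other transcripts of the same gene were not analysed here.

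The study asked how translation responds to loss of eIF2D, MCTS1 or DENR, 3 related non-canonical translation factors. RNA-seq (poly(A) RNA) and Ribo-seq (footprints of ribosomes, from cycloheximide lysates cut with RNase I) were made from MCTS1 KO lines #1 and #2, from untransfected wild type (WT) cells, from cells given siDENR #1 or #2, and from cells given siControl, with 2 libraries of each assay per group. TCP-seq, which recovers mRNA fragments held by ribosomal complexes including scanning small subunits, was made from eIF2D KO lines #1 and #2 and MCTS1 KO lines #1 and #2, with 2 libraries each, and from WT cells, with 4 libraries. 40S Sel-TCP-seq, in which complexes that carry a V5-tagged factor are selected, was made with eIF2D-V5, MCTS1-V5 and DENR-V5, with 2 libraries each. The labels give neither the siRNA dose and time nor the origin of the knockout lines, and for the V5 libraries no untagged selection was analysed here. The labels list 52 samples, and 10 of them, TCP-seq libraries of vector-carrying or eIF2D-re-expressing cells, were not analysed here.

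The respiratory chain passes electrons through complexes of the inner mitochondrial membrane and uses the proton gradient to make ATP. Most of its subunits, including all members here, are encoded in the nucleus, translated by cytosolic ribosomes and imported, while a core set is encoded in mitochondrial DNA. In complex III, UQCRFS1 is the Rieske iron-sulfur protein, CYC1 is the heme-bearing cytochrome that hands electrons to cytochrome c, and UQCRC1 is a core subunit on the matrix side. In complex IV, the cytochrome c oxidase, COX4I1 and COX5A are among the first nuclear-encoded subunits to join the assembly, COX5B is a zinc-binding subunit, and COX6A1, COX7C and COX8A are small subunits that span the membrane. COX6A1 is the form of its subunit made outside heart and skeletal muscle. ATP5F1B is the catalytic beta subunit of ATP synthase.

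Library totals were 76967099 to 301214608 counts in RNA-seq, 16370112 to 193940882 in Ribo-seq, 1609303 to 5053637 in TCP-seq and 356019 to 2582917 in Sel-TCP-seq. MCTS1 KO line #1 had the deepest RNA-seq libraries, 301214608 and 150951436, against 79851240 to 89789500 in WT and line #2. Its Ribo-seq libraries were the deepest too, 193940882 and 148159238, against 25785993 to 53386368 in WT and line #2. All 10 members passed the filter on low counts in every fit. Their raw counts were at least 1515 in any RNA-seq library and at least 412 in any Ribo-seq library, but as low as 28 in TCP-seq and 7 in Sel-TCP-seq, so those assays can resolve only larger changes. Levels are given as CPM, the count scaled to the library total, after TMM scaling within the assay. They are not divided by transcript length, so no level is compared between genes. Transcripts of a gene share reads, and several of these genes have processed pseudogenes or paralogs, so how the authors' counting divided such reads is uncertain for each member. The table does not pair identifiers with gene symbols, so the levels of MCTS1, DENR and EIF2D and of the other respiratory chain genes were not analysed here.

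Many nuclear genes of the respiratory chain are known targets of the factors NRF-1, the ETS family (NRF-2/GABP), YY1 and ZNF143. Start-site sequences of the members are shown here for description. Whether such letters go with any change given below was not tested. RefSeq windows (GRCh38.p14, 250 bases before to 50 after the start) were on hand for 8 of the 10 members. Searched on both strands, the NRF-1 letters GCGCANGCG occurred in 3 of the 8 windows (COX6A1, UQCRFS1 and UQCRC1) and in 7.52% of 35116 RefSeq windows of the same length, and the related letters GCATGCGC, which overlap them, in 2 of 8 (COX5B and COX6A1) and 3.05%. The ETS letters CCGGAAG occurred in 4 of 8 windows (COX4I1, COX5B, COX6A1 and COX8A) and 10.3% of all, the YY1 letters AAGATGG in 2 of 8 (COX7C and UQCRC1) and 5.84%, and the ZNF143 letters ACTACAATT in 1 of 8 (COX7C) and 0.336%. The TATA letters TATAAA were in none of the 8 windows and in 11.5% of all. The 80 bases that end just before the start are printed 5′ to 3′ on the gene's strand for the 6 members with a match wholly inside them, and capitals mark the matched letters or their reverse complement.
UQCRFS1, NRF-1 letters, chr19:29213152-29213231, minus strand: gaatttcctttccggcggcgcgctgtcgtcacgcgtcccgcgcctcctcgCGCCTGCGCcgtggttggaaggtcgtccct
UQCRC1, NRF-1 letters, chr3:48609647-48609726, minus strand: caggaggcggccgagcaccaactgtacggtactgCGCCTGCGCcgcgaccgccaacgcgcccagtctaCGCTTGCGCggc
COX5B, ETS letters, chr2:97645982-97646061, plus strand: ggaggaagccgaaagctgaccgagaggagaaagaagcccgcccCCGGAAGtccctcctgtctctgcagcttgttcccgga
COX6A1, ETS letters, chr12:120438033-120438112, plus strand: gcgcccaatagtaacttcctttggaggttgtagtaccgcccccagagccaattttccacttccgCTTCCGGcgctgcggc
COX8A, ETS letters, chr11:63974540-63974619, plus strand: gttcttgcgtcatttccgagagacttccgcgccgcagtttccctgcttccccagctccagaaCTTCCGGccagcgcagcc
COX7C, ZNF143 and YY1 letters, chr5:86617861-86617940, plus strand: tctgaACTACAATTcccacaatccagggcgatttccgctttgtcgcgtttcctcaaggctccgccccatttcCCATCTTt
A match is a description of these letters and not a bound site.

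In WT cells the members were represented differently by the assays. The log2 ratio of Ribo-seq to RNA-seq CPM was above the median of all 108353 transcripts that passed in both assays, -0.33, for all 10. Those transcripts were not sorted into coding and noncoding ones, so that median is not one of coding transcripts alone. COX6A1 had the highest ratio, 1.02 (94.4th percentile), and COX8A the lowest, 0.07 (67th percentile). The other 8 lay between 0.31 for CYC1 and 0.70 for UQCRC1. The COX8A ratio was also the least certain, -0.22 with one WT Ribo-seq library and 0.30 with the other. In siControl cells the ratios ran from -0.10 for COX8A (59.3rd percentile) to 0.85 for COX6A1 (90.8th). CYC1 was then at 0.00 (63.3rd), and all 10 were again above the median of all transcripts, -0.33.

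TCP-seq split the members. Its log2 ratio to RNA-seq was 1.84 for COX7C (95.3rd percentile of 49908 transcripts) and 1.82 for COX8A (95.2nd), both small membrane-spanning complex IV subunits, and 1.23 for COX6A1 (90.2nd). It was -1.43 for ATP5F1B (5.82nd percentile) and -0.79 for COX5A (21.3rd). Over the 4 WT TCP-seq libraries the ratio ranged from 1.69 to 1.95 for COX7C, 1.64 to 1.95 for COX8A and -1.75 to -1.16 for ATP5F1B. Those of COX4I1 (0.02 to 0.24), UQCRFS1 (-0.61 to 0.15) and UQCRC1 (-0.40 to 0.02) reached close to 0 or across it. The median ratio of all transcripts was -0.17. Scaling was done within each assay, so a ratio of 0 does not mark equal representation. Transcript length was not available and can move such a ratio, since TCP-seq and RNA-seq may sample a transcript unevenly along its length.

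**Figure D1:**
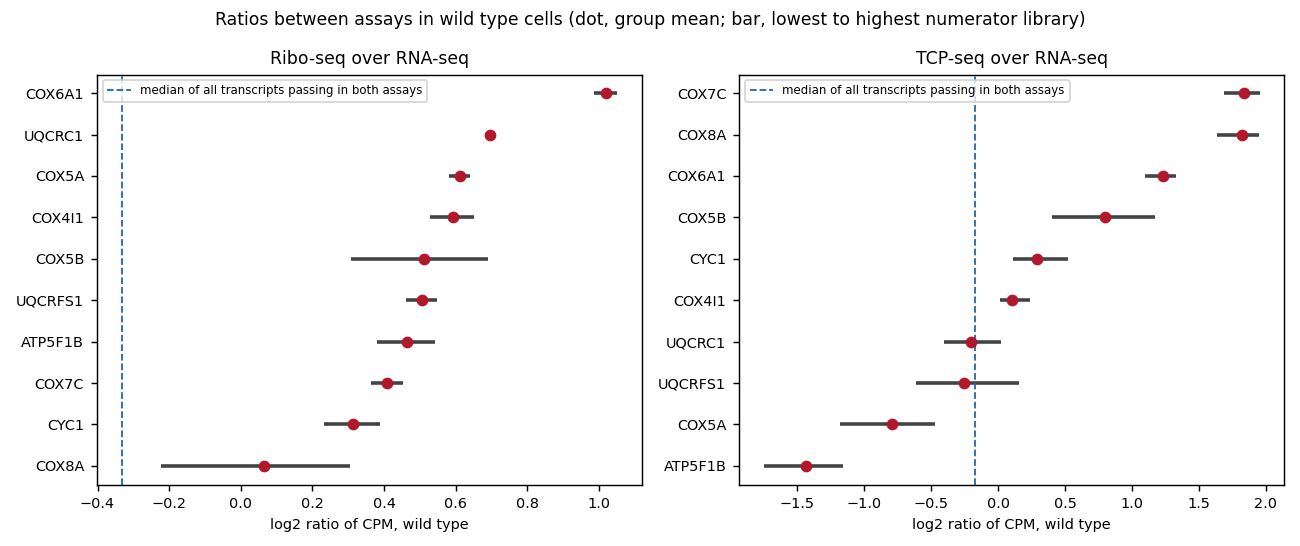
Log2 ratio of Ribo-seq (left) and TCP-seq (right) CPM to RNA-seq CPM in WT cells, on the horizontal axes, with 1 row for each transcript. Dots are ratios of group means, bars run from the lowest to the highest Ribo-seq or TCP-seq library, and the dashed line is the median of all transcripts. All 10 members lie right of the line for Ribo-seq, while TCP-seq ratios run from -1.43 for ATP5F1B to 1.84 for COX7C.

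In MCTS1 KO cells the mRNA of these subunits differed from WT cells by small amounts and in both directions. With the lines averaged, COX6A1 and COX8A were higher and COX5B and ATP5F1B lower in MCTS1 KO than in WT cells, 4 of 10 members called (edgeR's quasi-likelihood test, Benjamini-Hochberg adjusted p under 0.05 over all transcripts), where 24.9% of the 131951 transcripts tested were called. The members' median absolute log2 change was 0.08, against 0.16 over all transcripts. COX8A had 27.8 and 26.5 CPM in line #1 and 25.0 and 26.1 CPM in line #2, against 23.0 and 22.0 CPM in WT cells. All 4 KO libraries were above both WT libraries, a log2 change of 0.23 ± 0.04 (SE, adjusted p = 6.98e-06). COX6A1 had 35.6 and 33.6 CPM in line #1 and 30.7 and 29.5 CPM in line #2, against 29.3 and 28.6 CPM in WT cells. Its KO libraries were all above WT too, most clearly in line #1, and the averaged change was 0.16 ± 0.04 (SE, adjusted p = 0.00102).

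ATP5F1B had 137 and 140.3 CPM in line #1 and 175 and 177 CPM in line #2, against 174 and 168 CPM in WT cells. Only the libraries of line #1 were below WT, and the averaged change of -0.13 ± 0.03 (SE, adjusted p = 0.00052) rests on that line. COX5B had 20.5 and 19.3 CPM in line #1 and 23.4 and 23.3 CPM in line #2, against 24.8 and 23.2 CPM in WT cells. It too was lowest in line #1, with an averaged change of -0.15 ± 0.04 (SE, adjusted p = 0.00372). The calls of COX6A1, COX8A and ATP5F1B held in each of the 6 fits that left out 1 library. That of COX5B was lost without WT replicate 1 (log2 change -0.10, adjusted p = 0.179), and without replicate 1 of line #1 COX4I1 (0.11) and UQCRC1 (0.10) were called higher as well.

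The members' median absolute log2 difference between the lines was 0.22, against 0.08 for the averaged change. Over all transcripts the median absolute difference between the lines was 0.26. In line #1 alone, COX6A1 and COX8A were higher than in WT cells and COX5A, COX5B, COX7C, ATP5F1B, UQCRFS1 and CYC1 lower, 8 of 10 against 42.2% of all transcripts. In line #2 alone, COX4I1, COX5A, COX7C, COX8A and UQCRC1 were higher and none was lower, 5 of 10 against 14.9% of all transcripts. Both lines were tested against the same 2 WT libraries. COX5A and COX7C thus changed in opposite directions. COX7C had 49.1 and 48.2 CPM in line #1 and 62.5 and 60.7 CPM in line #2, against 54.6 and 54.0 CPM in WT cells, log2 changes of -0.15 ± 0.04 and 0.18 ± 0.04 (SE, edgeR adjusted p = 0.000846 and 0.000469). COX5A had 35.3 and 35.0 CPM in line #1 and 42.1 and 43.2 CPM in line #2, against 39.2 and 38.5 CPM in WT cells, changes of -0.14 ± 0.04 and 0.13 ± 0.04 (SE). The COX5A rise in line #2 is the weaker of these: its call was lost in 4 of 6 fits that left out 1 library, each time with a log2 change between 0.11 and 0.15, and DESeq2 did not call it (adjusted p = 0.0651). COX4I1, COX8A and UQCRC1 in line #2 were not called without WT replicate 2 (0.15, 0.15 and 0.14), and each also lost its call without 1 library of line #2, replicate 1 for COX4I1 (0.15) and replicate 2 for COX8A (0.15) and UQCRC1 (0.15).

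Compared directly, lines #1 and #2 differed for 9 of the 10 members, against 45.8% of all transcripts tested. The transcripts behind this and the other shares were not matched to the members in count. The RNA-seq libraries of line #1 were also deeper than those of line #2, and depth cannot be told apart from line here. Line #1 was lower for all 3 complex III members, for COX4I1, COX5A, COX5B and COX7C, and for ATP5F1B, which had the largest difference of the 10 at -0.34 ± 0.04 (SE, edgeR adjusted p = 1.43e-12). COX6A1 was higher in line #1 (0.21 ± 0.04), and the 0.10 ± 0.04 difference of COX8A did not pass (edgeR adjusted p = 0.0669). All 9 calls held in each of the 6 fits that left out 1 library. With library totals in place of TMM the UQCRC1 difference shrank to -0.08 and was not called, while COX8A was called higher in line #1 (0.18).

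**Figure D2:**
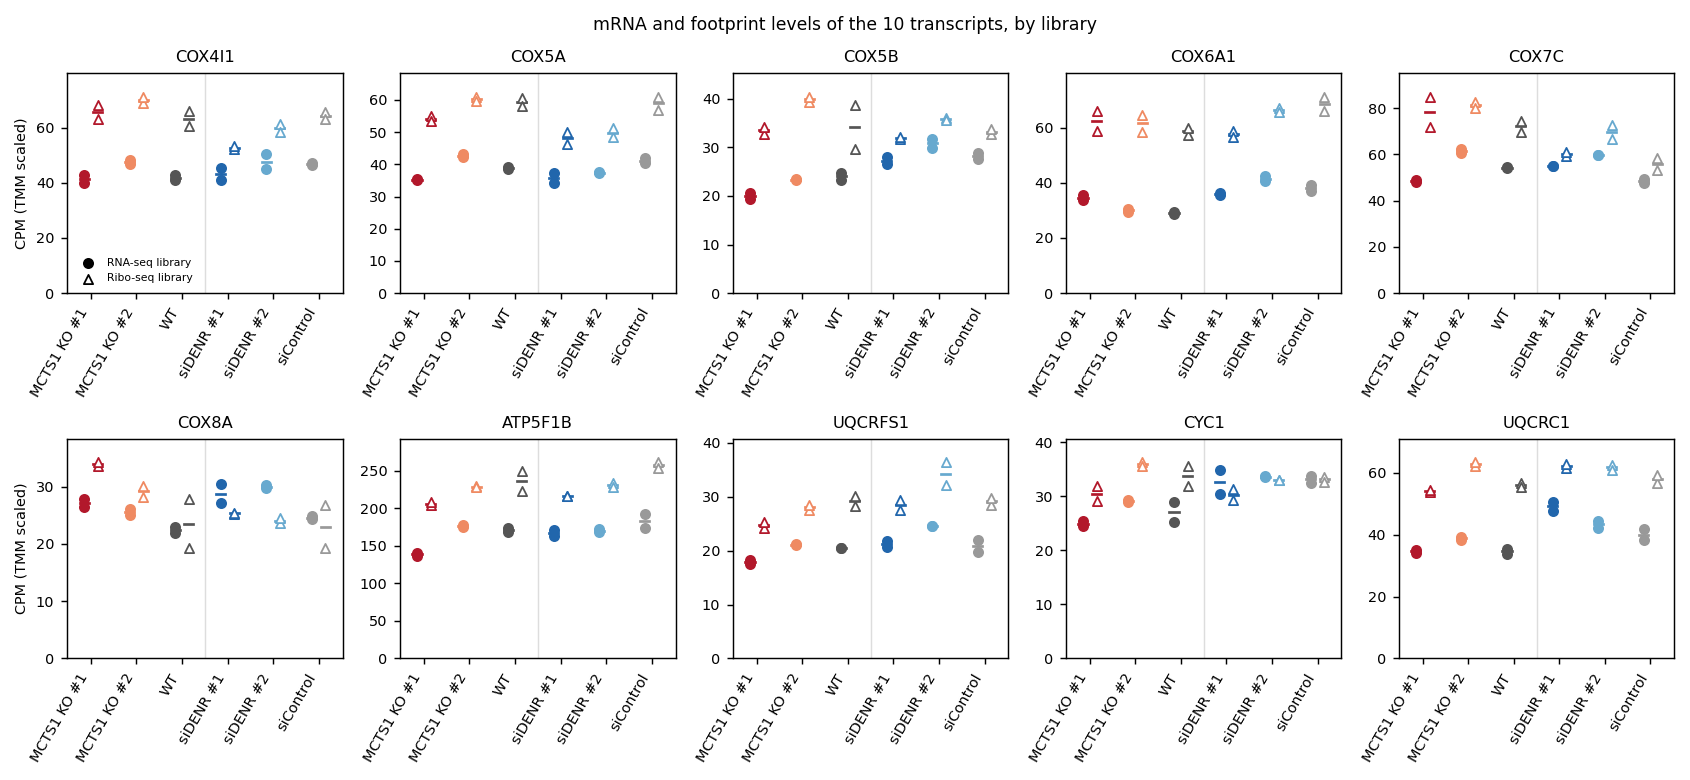
CPM of each transcript (vertical axes, from 0, scaled per transcript) in RNA-seq libraries (filled circles) and Ribo-seq libraries (open triangles) of MCTS1 KO lines #1 and #2, WT, siDENR #1, siDENR #2 and siControl cells, with short lines at the mean of 2. For COX7C mRNA, line #1 lies below WT and line #2 above, and for COX8A the Ribo-seq libraries of WT and of siControl cells lie far apart.

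In Ribo-seq the same knockout gave no call among the members with the lines averaged, where 6.1% of 115412 transcripts were called by edgeR. At an unadjusted p under 0.05 there were 3 of 10, and DESeq2 called 1, COX8A. COX8A had 33.6 and 34.3 CPM in line #1 and 30.2 and 28.2 CPM in line #2, against 19.3 and 27.8 CPM in WT cells. All 4 KO libraries were above both WT libraries, but the WT libraries were far apart, and the log2 change of 0.40 ± 0.12 (SE) had an edgeR adjusted p of 0.0836. Without WT replicate 2, edgeR called 3 members: COX8A higher by 0.71, COX5B higher by 0.30 and ATP5F1B at -0.20. In line #1 alone COX8A was higher (0.50 ± 0.13) and ATP5F1B (-0.20 ± 0.07) and UQCRFS1 (-0.24 ± 0.08) lower, 3 of 10 against 16.6% of all transcripts. These calls were lost in 3 of 6 fits that left out 1 library for COX8A and in 5 of 6 for each of the others, with values from 0.28 to 0.81, -0.28 to -0.13 and -0.29 to -0.19 over the 6 fits. DESeq2 called COX8A alone of these 3, and so did edgeR with library totals or with no filter on low counts. In line #2 alone edgeR and DESeq2 called none, with 2 members at an unadjusted p under 0.05 and 3.61% of all transcripts called by edgeR. Between the lines only UQCRC1 differed (-0.22 ± 0.07, SE, edgeR adjusted p = 0.0446), against 18.6% of all transcripts, with 53.9 and 54.5 CPM in line #1 and 62.1 and 63.5 CPM in line #2. That call was lost without any 1 of these 4 libraries, at values from -0.23 to -0.20, and DESeq2 called no member. With no filter COX8A was called instead, and with RLE size factors CYC1 (-0.25) was called as well.

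Translational efficiency, the change in Ribo-seq beyond that in RNA-seq, was not called for any member in MCTS1 KO cells, where 0.872% of 108757 transcripts were called. At an unadjusted p under 0.05 edgeR had 1 member, and DESeq2 called none. The log2 changes ran from -0.10 ± 0.08 for COX6A1 to 0.21 ± 0.09 for COX5B (SE). Without WT Ribo-seq replicate 2, COX5B (0.42) and COX8A (0.45) were called higher.

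With both DENR siRNAs averaged, the mRNA of COX7C, COX8A and UQCRC1 was higher and that of COX5A lower than with siControl. These were 4 of 10 members, against 23.1% of 131311 transcripts. COX7C had 55.0 and 55.0 CPM with siDENR #1 and 59.7 and 59.9 CPM with siDENR #2, against 49.5 and 47.5 CPM with siControl. COX8A had 30.4 and 27.2 CPM with siDENR #1 and 30.2 and 29.7 CPM with siDENR #2, against 24.9 and 24.4 CPM with siControl. In both transcripts each siDENR library was above both siControl libraries, with log2 changes of 0.24 ± 0.06 for COX7C and 0.26 ± 0.07 for COX8A (SE, edgeR adjusted p = 0.00111 and 0.00236). UQCRC1 had 50.6 and 47.7 CPM with siDENR #1 and 44.5 and 42.2 CPM with siDENR #2, against 38.2 and 41.7 CPM with siControl. Its change of 0.21 ± 0.06 (SE, adjusted p = 0.00886) was called with siDENR #1 alone (0.30 ± 0.07) and not with siDENR #2 alone (0.12 ± 0.07). COX5A had 34.3 and 37.4 CPM with siDENR #1 and 37.4 and 37.5 CPM with siDENR #2, against 40.4 and 41.9 CPM with siControl, a change of -0.17 ± 0.06 (SE, adjusted p = 0.0381). DESeq2 did not call COX5A (adjusted p = 0.0541), and neither did edgeR on library totals (adjusted p = 0.0827).

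These mRNA counts depended on single libraries. Without siControl replicate 1 only COX7C was called, without siControl replicate 2 only UQCRC1, and without siDENR #2 replicate 1 only COX7C and COX8A. Their log2 changes stayed between 0.22 and 0.27 for COX7C, 0.22 and 0.30 for COX8A, 0.14 and 0.28 for UQCRC1 and -0.19 and -0.13 for COX5A over the 6 fits. With siDENR #1 alone 4 of 10 members were called, the same 4, against 26% of all transcripts. Over the 6 fits that left out 1 library, the call was lost in 5 for COX5A (-0.26 to -0.13), 4 for COX7C (0.16 to 0.21), 3 for COX8A (0.15 to 0.31, lowest without siDENR #1 replicate 1) and 1 for UQCRC1 (0.23 without siControl replicate 1). With siDENR #2 alone 3 were called, COX7C (0.30 ± 0.07), COX8A (0.29 ± 0.07) and UQCRFS1 (0.24 ± 0.08), against 19.2%. UQCRFS1 was not called without siControl replicate 1 (0.16) or without either library of siDENR #2 (0.23 and 0.24), and COX8A was not called without siControl replicate 2 or siDENR #2 replicate 1 (0.27 each). The siRNAs differed for COX6A1 (-0.20 ± 0.07), UQCRFS1 (-0.21 ± 0.08) and UQCRC1 (0.18 ± 0.07), siDENR #1 minus siDENR #2, 3 of 10 against 24.8% of all transcripts. Each of these calls was lost in 4 or 5 of the 6 fits that left out 1 library.

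In Ribo-seq, footprints with both DENR siRNAs averaged were lower on COX4I1, COX5A and ATP5F1B and higher on COX7C than with siControl. These were 4 of 10 members, against 10.4% of 108890 transcripts. ATP5F1B had 216 and 217 CPM with siDENR #1 and 234 and 228 CPM with siDENR #2, against 262 and 253 CPM with siControl. All 4 siDENR libraries were below both siControl libraries, with a log2 change of -0.20 ± 0.04 (SE, edgeR adjusted p = 0.000121), and this call held in each of the 6 fits that left out 1 library. COX5A had 50.1 and 46.3 CPM with siDENR #1 and 48.5 and 51.2 CPM with siDENR #2, against 57.0 and 60.9 CPM with siControl. Its libraries did not overlap between groups either, at -0.27 ± 0.06 (SE, adjusted p = 0.000703).

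COX4I1 had 52.3 and 53.2 CPM with siDENR #1 and 61.3 and 58.5 CPM with siDENR #2, against 65.5 and 63.0 CPM with siControl. The change of -0.19 ± 0.05 (SE, edgeR adjusted p = 0.0133) was called with siDENR #1 alone (-0.28 ± 0.06) and not with siDENR #2 alone (-0.10 ± 0.06). The difference between the siRNAs was -0.19 ± 0.06 (SE, edgeR adjusted p = 0.0506). COX7C had 59.4 and 60.9 CPM with siDENR #1 and 66.6 and 72.8 CPM with siDENR #2, against 58.5 and 53.4 CPM with siControl, a change of 0.21 ± 0.06 (SE, adjusted p = 0.00768). Its rise was larger with siDENR #2 (0.32 ± 0.07) than with siDENR #1 (0.10 ± 0.07), and the difference of -0.21 ± 0.07 was called (edgeR adjusted p = 0.024), though not in 3 of the 6 fits that left out 1 library (-0.27 to -0.15). COX6A1 and UQCRFS1 also differed between the siRNAs, 3 of 10 members against 11.1% of all transcripts, and DESeq2 called none of these 3. With siDENR #1 alone COX4I1, COX5A, COX6A1 and ATP5F1B were called lower, 4 of 10 against 10.6% of all transcripts. COX5A was then not called without siControl replicate 2 (-0.24) or siDENR #1 replicate 2 (-0.23), and COX6A1 not without siControl replicate 1 (-0.20) or siDENR #1 replicate 2 (-0.21). With siDENR #2 alone COX5A and ATP5F1B were called lower and COX7C higher, 3 of 10 against 9.21%. COX5A was then not called by DESeq2, without siControl replicate 2 (-0.19) or without siDENR #2 replicate 1 (-0.21), and ATP5F1B not without siControl replicate 1 or siDENR #2 replicate 2 (-0.13 each). Without siControl replicate 2 only ATP5F1B was called in the averaged comparison. COX4I1 was then at -0.22, COX5A at -0.22 and COX7C at 0.15. Without siControl replicate 1 the COX4I1 call was lost (-0.17) and COX8A was called higher (0.36).

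Translational efficiency after DENR depletion was below that in siControl cells for all 10 members, but none passed the test. edgeR called 0.369% of 102515 transcripts, had 1 member at an unadjusted p under 0.05, and DESeq2 called no member. The members' median log2 change was -0.10, with a range from -0.17 ± 0.08 for COX6A1 to -0.03 ± 0.09 for COX5B (SE), against a median of 0.01 and 51.2% of values above 0 over all transcripts. The members share the same 12 libraries, so 10 values of one sign are not 10 independent observations. With siDENR #2 alone 9 of the 10 were below 0, at a median of -0.04, and with siDENR #1 alone all 10 were, at a median of -0.12.

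Cells given siControl also differed from WT cells in mRNA of this set. The siRNA, transfection and library preparation cannot be told apart in siControl against WT, in either assay. Between siControl and untransfected WT cells, COX4I1, COX5B, COX6A1, CYC1 and UQCRC1 were higher and COX7C lower, 6 of 10 members against 32.2% of 128418 transcripts. COX6A1 had 37.2 and 39.2 CPM in siControl cells, against 29.3 and 28.6 CPM in WT cells, a log2 change of 0.40 ± 0.05 (SE, edgeR adjusted p = 8.99e-10). CYC1 had 32.5 and 33.8 CPM in siControl cells, against 29.0 and 25.2 CPM in WT cells, a change of 0.29 ± 0.05 (SE, adjusted p = 1.1e-05). COX7C had 49.5 and 47.5 CPM in siControl cells, against 54.6 and 54.0 CPM in WT cells, a change of -0.17 ± 0.05 (SE, adjusted p = 0.00427). The COX6A1 call held in each of the 4 fits that left out 1 library. It was the only one left without WT replicate 2, when the other 5 lay at 0.13 for COX4I1, 0.19 for COX5B and CYC1, 0.18 for UQCRC1 and -0.17 for COX7C. COX4I1 and COX7C were also lost without WT replicate 1 (0.19 and -0.16).

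In Ribo-seq COX7C alone was called, at 58.5 and 53.4 CPM in siControl cells against 69.8 and 74.3 CPM in WT cells. The log2 change was -0.37 ± 0.09 (SE, edgeR adjusted p = 0.00826), 1 of 10 members against 9.59% of 107444 transcripts. This call was lost without either siControl library (-0.44 and -0.31). Without WT replicate 1 ATP5F1B (0.19) and without WT replicate 2 COX6A1 (0.25) were called higher beside it. COX7C is thus the transcript that was lower in siControl than in WT cells and higher with siDENR than with siControl in both assays. These 2 comparisons share the siControl libraries. In Ribo-seq COX7C had 59.4 and 60.9 CPM with siDENR #1 and 66.6 and 72.8 CPM with siDENR #2. WT cells had 69.8 and 74.3 CPM.

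In TCP-seq, no member passed the test in eIF2D KO cells. With lines #1 and #2 averaged against WT replicates 1 and 2, which share their run of library names, edgeR called none and had none at an unadjusted p under 0.05, where 1.61% of 50991 transcripts were called. DESeq2 called none of the 4 members for which it gave an adjusted p. The log2 changes ran from -0.07 ± 0.15 for UQCRC1 to 0.25 ± 0.13 for COX4I1 (SE). Each line was also set against the same WT libraries, where edgeR called 1.84% and 3.29% of all transcripts in lines #1 and #2. No member was called in either. Line #1 alone had 2 of 10 values above 0 (median -0.11), and line #2 alone had all 10 (median 0.22). With all 4 WT libraries as 1 group the averaged change was above 0 for all 10 (median 0.22), with none called. Line #2 alone then had 3 members called higher, where 4311 of 50991 transcripts were called. Line #2 was above line #1 for all 10 members, and COX5A and COX5B passed the test of that difference, 2 of 10 against 8.23% of all transcripts. COX5A had 21.1 and 24.4 CPM in line #1 and 36.6 and 29.6 CPM in line #2, against 28.0 and 25.1 CPM in WT replicates 1 and 2, a difference of -0.57 ± 0.17 (SE, edgeR adjusted p = 0.0231). COX5B had 42.6 and 47.8 CPM in line #1 and 60.9 and 63.3 CPM in line #2, against 54.1 and 39.2 CPM in WT replicates 1 and 2, a difference of -0.44 ± 0.14 (SE, adjusted p = 0.0268). The COX5B libraries of line #1 and WT overlapped. Without replicate 1 of line #1 these were -0.52 and -0.41, and without replicate 1 of line #2 they were -0.37 and -0.48, none of them called. The COX5B call was also lost without replicate 2 of line #2 (-0.43) and with DESeq2 (adjusted p = 0.0961), which gave COX5A no adjusted p. Library totals in place of TMM ended both calls (-0.51 and -0.39), and so did taking all 4 WT libraries as 1 group (-0.56 and -0.45).

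MCTS1 KO cells had more TCP-seq reads than WT replicates 3 and 4 on COX5A, COX5B, COX6A1 and COX7C, 4 of 10 members against 13.8% of 50991 transcripts. All 10 values were above 0, with a median log2 change of 0.32, against 50.5% of values above 0 and a median of 0.01 over all transcripts. The members share the same libraries in each TCP-seq comparison here, so 10 values of the same sign are not 10 independent observations. COX5A had 29.2 and 31.6 CPM in line #1 and 31.2 and 33.5 CPM in line #2, against 17.1 and 19.5 CPM in WT cells, a log2 change of 0.79 ± 0.19 (SE, edgeR adjusted p = 0.00157). COX5B had 50.0 and 54.2 CPM in line #1 and 49.3 and 56.8 CPM in line #2, against 31.8 and 41.8 CPM in WT cells, a change of 0.54 ± 0.15 (SE, adjusted p = 0.00578). COX7C had 245 and 252 CPM in line #1 and 256 and 219 CPM in line #2, against 175 and 210.4 CPM in WT cells, a change of 0.34 ± 0.10 (SE, adjusted p = 0.0163). For these 3 all KO libraries were above WT replicates 3 and 4. The same was so for COX4I1, COX8A and ATP5F1B, which were not called, and how many of all transcripts do so was not counted. COX6A1 had 100.0 and 93.6 CPM in line #1 and 74.9 and 61.1 CPM in line #2, against 61.9 and 64.0 CPM in WT cells, a change of 0.37 ± 0.12 (SE, adjusted p = 0.032). Its rise was in line #1, the line difference being 0.52 ± 0.13 (SE, edgeR adjusted p = 0.00925), 1 of 10 members against 3.44% of all transcripts. That difference was not called by DESeq2 or without either library of line #1 or replicate 2 of line #2 (0.38 to 0.56). In line #1 alone COX5A (0.74 ± 0.23) and COX6A1 (0.63 ± 0.15) were called, 2 of 10 against 4.99% of all transcripts. In line #2 alone COX5A (0.83 ± 0.20), COX5B (0.56 ± 0.16) and COX7C (0.31 ± 0.12) were called, 3 of 10 against 19.1%. Without WT replicate 3 none of these 5 was called (0.17 to 0.73). In line #1 COX5A was also lost without either of its libraries or WT replicate 4 (0.70 to 0.83), and COX6A1 without replicate 1 of the line (0.57). In line #2 the COX7C call was lost in 6 of 12 fits (0.17 to 0.45 over the 12) and COX5B without replicate 2 of the line (0.44). DESeq2 called COX6A1 alone in line #1 and COX5A alone in line #2. With all 4 WT libraries as 1 group, none was called in line #1 and COX5A alone in line #2.

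These TCP-seq rises depend on which WT libraries are used. WT replicates 3 and 4 were below WT replicates 1 and 2 for 9 of the 10 members. ATP5F1B, at 50.9 and 52.9 CPM in replicates 3 and 4 and 73.4 and 76.8 CPM in replicates 1 and 2, differed by -0.53 ± 0.14 (SE, edgeR adjusted p = 0.0187), 1 of 10 against 2.59% of all transcripts, though DESeq2 did not call it and the call was lost without any 1 of the 4 libraries (-0.59 to -0.50). COX5A differed by -0.56 ± 0.22 and COX5B by -0.41 ± 0.17 (SE), neither called. For COX5A, WT replicates 1 and 2 (28.0 and 25.1 CPM) lie just under the 4 MCTS1 KO libraries. Without WT replicate 3 none of the 4 members was called, at 0.67 for COX5A, 0.32 for COX5B, 0.33 for COX6A1 and 0.19 for COX7C. COX6A1 was also lost without WT replicate 4 (0.40), line #1 replicate 1 (0.34) or line #2 replicate 1 (0.30), and COX7C without the last of these (0.29). Against all 4 WT libraries as 1 group, COX4I1, COX5A and COX7C were called and 8 of 10 values were above 0. DESeq2 called only COX5A. The part of the run of library names in these values was not tested. The eIF2D KO change was below the MCTS1 KO change for all 10 members, but edgeR called no such difference among them, with 3 at an unadjusted p under 0.05 and 3.54% of all transcripts called, and DESeq2 called none of the 9 for which it gave an adjusted p. With all 4 WT libraries as 1 group the order held for 6 of the 10.

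**Figure D3:**
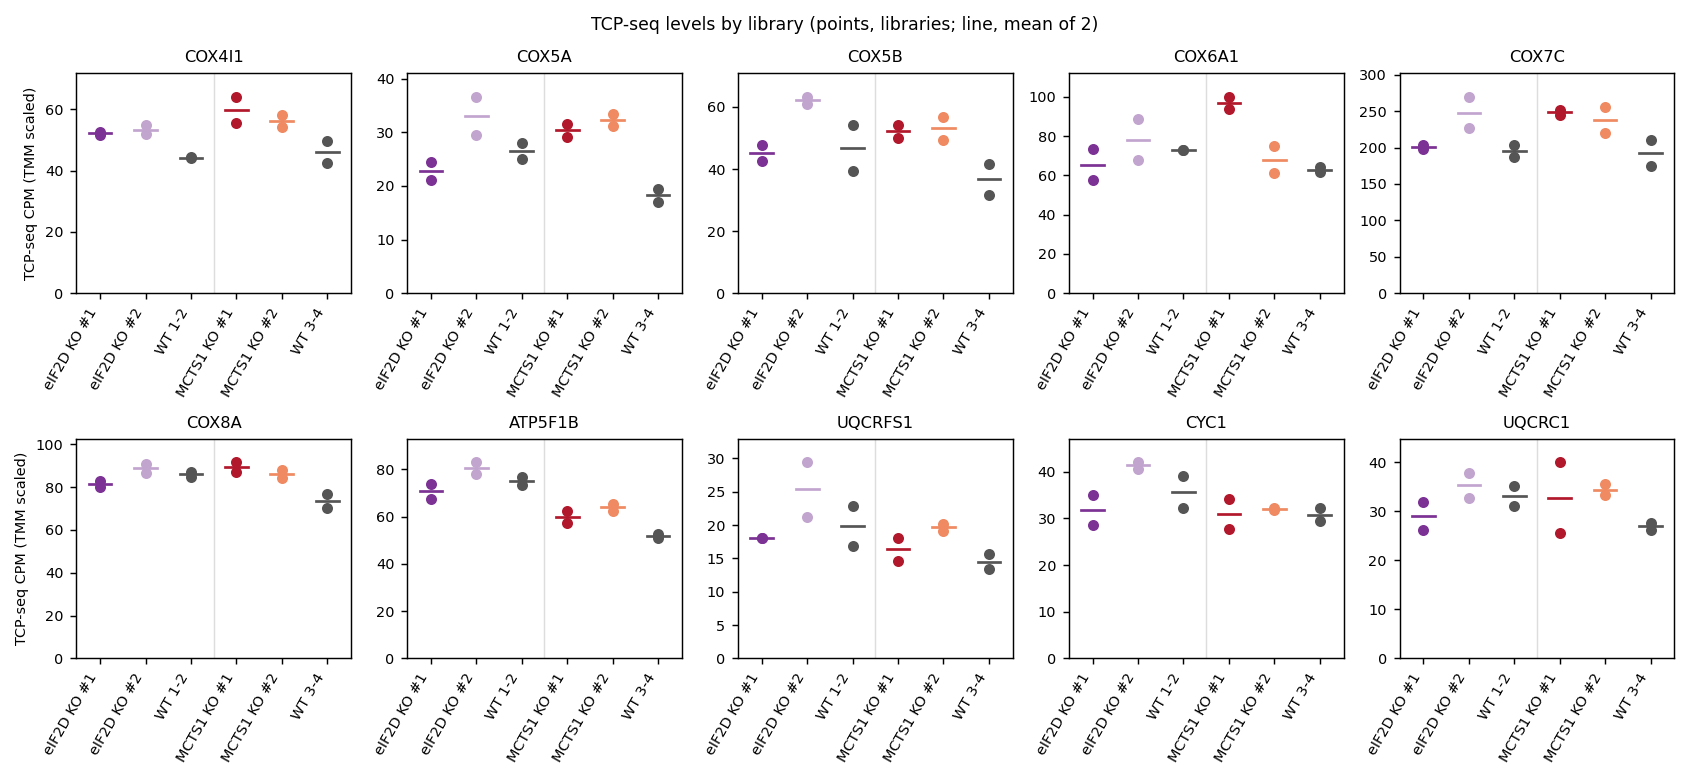
TCP-seq CPM of each transcript (vertical axes, from 0, scaled per transcript) in eIF2D KO lines #1 and #2 with WT replicates 1 and 2, and in MCTS1 KO lines #1 and #2 with WT replicates 3 and 4. Points are libraries and lines are means of 2. For COX5A the 4 MCTS1 KO libraries, 29.2 to 33.5 CPM, lie above WT replicates 3 and 4 at 17.1 and 19.5 CPM, while for ATP5F1B the WT pairs themselves lie apart.

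Among complexes selected by V5 tag, ATP5F1B stood higher with eIF2D-V5 than with the MCTS1-V5 and DENR-V5 mean, 1 of 10 members against 22.1% of 12135 transcripts. It had 120.5 and 147 CPM with eIF2D-V5, 81.8 and 101 CPM with MCTS1-V5 and 82.3 and 71.9 CPM with DENR-V5. Both eIF2D-V5 libraries were above the other 4, with a log2 difference of 0.67 ± 0.22 (SE, edgeR adjusted p = 0.0422). DESeq2 called no member (ATP5F1B adjusted p = 0.257), and the call was lost without eIF2D-V5 replicate 2 (0.50), DENR-V5 replicate 1 (0.67) or DENR-V5 replicate 2 (0.62). COX6A1 had 90.6 and 81.6 CPM with eIF2D-V5, 59.8 and 68.5 CPM with MCTS1-V5 and 48.0 and 19.6 CPM with DENR-V5. Its difference of 0.85 ± 0.30 (SE) had an edgeR adjusted p of 0.0515. It was called without DENR-V5 replicate 1 (1.22), MCTS1-V5 replicate 1 (0.81) or MCTS1-V5 replicate 2 (0.88), and without MCTS1-V5 replicate 2 COX7C was called lower (-0.66).

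Set against DENR-V5 alone, eIF2D-V5 was higher for COX6A1 (1.30 ± 0.37) and ATP5F1B (0.80 ± 0.27), 2 of 10 against 19.1% of all transcripts. The COX6A1 value rests on DENR-V5 replicate 2, which held 9 reads of it: without that library it was 0.83 and not called, without DENR-V5 replicate 1 it was 2.07, and without eIF2D-V5 replicate 2 it was 1.38 and not called. The ATP5F1B call was lost without either DENR-V5 library or eIF2D-V5 replicate 2 (0.64 to 0.84). DESeq2 called neither. Against MCTS1-V5 alone edgeR called no member, with none at an unadjusted p under 0.05 and 7.31% of all transcripts called, and DESeq2 called none. Between MCTS1-V5 and DENR-V5, edgeR and DESeq2 called none of the 12135 transcripts (0%), and 2 members had an unadjusted edgeR p under 0.05.

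Relative to unselected WT TCP-seq, COX4I1 and ATP5F1B were higher in eIF2D-V5 libraries and in the mean of MCTS1-V5 and DENR-V5, but not called with DENR-V5 alone. These CPM come from a joint scaling of the 10 libraries. With eIF2D-V5, ATP5F1B had 121 and 153 CPM, against 67.5, 70.7, 47.9 and 49.3 CPM in the 4 WT TCP-seq libraries, a log2 difference of 1.22 ± 0.21 (SE, edgeR adjusted p = 3.09e-06). COX4I1 had 88.7 and 70.7 CPM with eIF2D-V5, against 40.8, 40.6, 39.9 and 46.2 CPM in WT, a difference of 0.91 ± 0.22 (SE, adjusted p = 0.000672). In both, each eIF2D-V5 library was above every WT library. They were the only members called, 2 of 10 against 36% of 35013 transcripts, a share below that of all transcripts. Both calls held in each of the 10 fits that left out 1 library, over 1.06 to 1.34 for ATP5F1B and 0.73 to 1.11 for COX4I1, and with WT replicates 1 and 2 or 3 and 4 alone.

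With the MCTS1-V5 and DENR-V5 mean, COX4I1, ATP5F1B and UQCRFS1 were higher than in unselected WT, 3 of 10 against 24.1% of 35013 transcripts. COX4I1 had 92.5 and 103 CPM with MCTS1-V5 and 66.3 and 44.0 CPM with DENR-V5, against 39.9 to 46.2 CPM in WT, a difference of 0.83 ± 0.21 (SE, edgeR adjusted p = 0.00208). One DENR-V5 library thus fell within the WT range. ATP5F1B had 80.1 and 115 CPM with MCTS1-V5 and 86.1 and 72.7 CPM with DENR-V5, all above the 47.9 to 70.7 CPM in WT, a difference of 0.60 ± 0.20 (SE, adjusted p = 0.0224). UQCRFS1 had 21.6 and 31.6 CPM with MCTS1-V5 and 28.7 and 26.4 CPM with DENR-V5, against 12.7 to 21.0 CPM in WT, a difference of 0.77 ± 0.28 (SE, adjusted p = 0.0347), from 7 to 19 reads in the V5 libraries. The median of all transcripts was -0.13 in this comparison and -0.32 with library totals in place of TMM, where only COX4I1 was called. With WT replicates 1 and 2 alone COX4I1 was called by itself (ATP5F1B at 0.35, UQCRFS1 at 0.55), and with WT replicates 3 and 4 alone all 3 were called, with COX5A as well (0.81). Without DENR-V5 replicate 1 no member was called, with COX4I1 at 0.58, ATP5F1B at 0.46 and UQCRFS1 at 0.67. COX4I1 was the only member called without DENR-V5 replicate 2, MCTS1-V5 replicate 2, WT replicate 3 or WT replicate 4, when ATP5F1B lay between 0.37 and 0.61 and UQCRFS1 between 0.53 and 0.76. The UQCRFS1 call was also lost with DESeq2 and without WT replicate 2 (0.73) or eIF2D-V5 replicate 1 (0.73). With MCTS1-V5 alone COX4I1 (1.23 ± 0.25) and ATP5F1B (0.76 ± 0.25) were called, 2 of 10 against 14.8% of all transcripts. The ATP5F1B call was lost in 6 of the 10 fits that left out 1 library (0.33 to 0.90 over the 10, lowest without MCTS1-V5 replicate 2), with DESeq2 and with library totals, and COX4I1 was lost without MCTS1-V5 replicate 2 (1.04). With DENR-V5 alone edgeR and DESeq2 called no member, with 2 at an unadjusted p under 0.05 and 10.8% of all transcripts called by edgeR, and COX4I1 was at 0.42 ± 0.27. Whether MCTS1-V5 and DENR-V5 differ for COX4I1 was tested in the same fit, where none of the 35013 transcripts was called by edgeR. The V5-selected and unselected libraries differ in protocol as well as in selection, and these cannot be told apart.

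**Figure D4:**
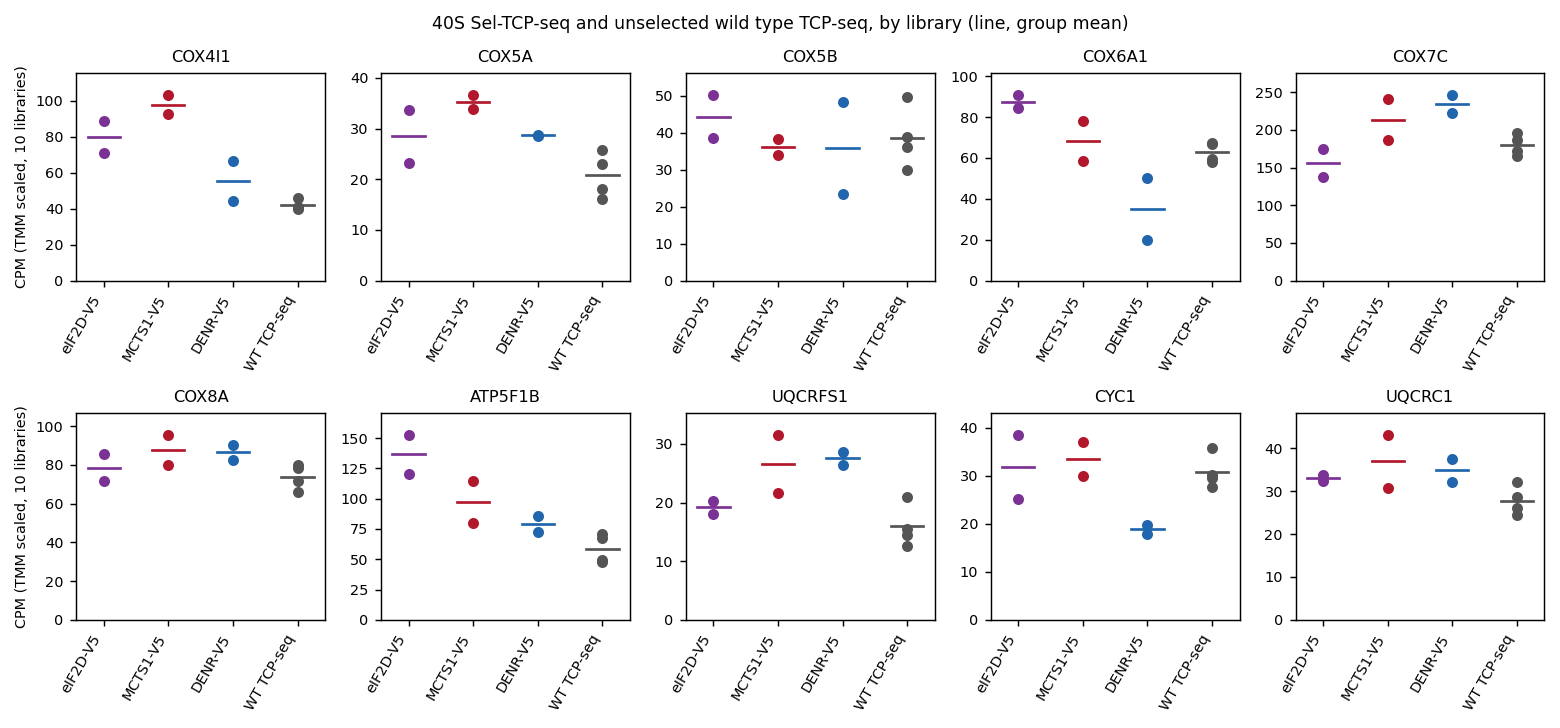
CPM of each transcript (vertical axes, from 0, scaled jointly over 10 libraries) in eIF2D-V5, MCTS1-V5 and DENR-V5 40S Sel-TCP-seq and in unselected WT TCP-seq. Points are libraries and lines are group means. ATP5F1B is at 121 and 153 CPM with eIF2D-V5, above all other libraries, and COX4I1 is at 70.7 to 103 CPM with eIF2D-V5 and MCTS1-V5, above the 4 WT libraries.

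The calls of COX8A, ATP5F1B and CYC1 are brought together here across comparisons, and whether members differ in pattern was not tested. COX8A mRNA was called higher in both MCTS1 KO lines and with both DENR siRNAs, each against its own control, although of these 4 calls that of line #1 was the only one to hold in each fit that left out 1 library, and its footprints were not called in either averaged comparison. ATP5F1B was lower in mRNA in MCTS1 KO line #1 (-0.30 ± 0.04) and lower in footprints with DENR depletion. Against unselected WT it was higher in eIF2D-V5 complexes and also in the mean of MCTS1-V5 and DENR-V5. The ATP5F1B difference between eIF2D-V5 and that mean ran from 0.50 to 0.82 over fits that left out 1 library, and DESeq2 did not call it. In the main edgeR fits CYC1 was called only in mRNA, in MCTS1 KO line #1 (-0.11 ± 0.05), between the MCTS1 KO lines and between siControl and WT. Its footprints were called between the MCTS1 KO lines with RLE size factors or with the replicate number as a block. Its mRNA call in line #1 was lost without WT replicate 1 (-0.01), without replicate 2 of line #1 (-0.09), without either library of line #2 (-0.12 each) and with DESeq2.

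**Figure D5:**
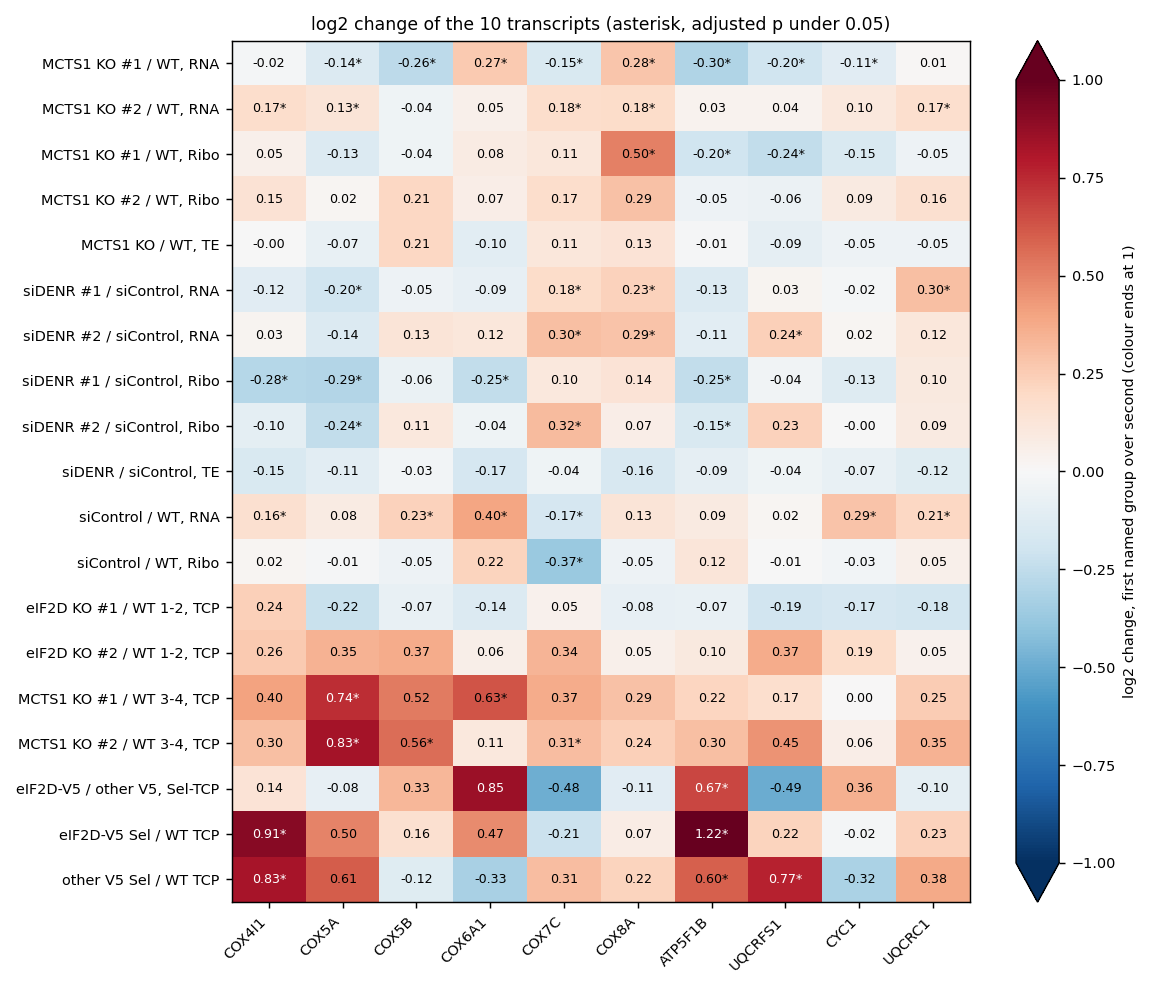
Log2 change of each transcript (columns) in each comparison (rows), first named group over the second, with the colour scale ending at 1 in either direction. TE is translational efficiency, other V5 is the mean of MCTS1-V5 and DENR-V5, and an asterisk marks an edgeR adjusted p under 0.05. The MCTS1 KO RNA rows differ in sign for COX5A and COX7C, and against unselected TCP-seq the highest value is that of ATP5F1B (1.22) with eIF2D-V5 and of COX4I1 (0.83) with the other V5 mean.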

How the data were processed

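Counts per transcript were made and deposited by the authors as 1 table of whole numbers. The submitters' processing notes name cutadapt, STAR, Subread and featureCounts and the builds hg38 and GRCh38.p13, with no tool versions. How reads shared between transcripts, or strand, were handled is not stated. Groups came from the labels, which do not say that replicates were separate cultures, and p-values then cover only the spread between libraries. The quasi-likelihood test of edgeR 4.0.16 (R 4.3.3; robust, TMM, filterByExpr with minimum count 10) was fitted over all transcripts with 1 coefficient per group, and p-values were Benjamini-Hochberg adjusted. Both lines or siRNAs were averaged, so that test takes no account of how far they differ. Translational efficiency was fitted as an assay-by-group interaction. Alternatives were DESeq2 1.42.0, other scalings, no filter, distinct count profiles, a replicate block, other WT libraries and leaving out each library. All 10 members are reported, and members and lists were chosen with earlier results of these data known. No 2 libraries of a group agreed within counting noise. The test was also run on simulated counts. Their planted changes were larger than most member changes here and the same in both lines or siRNAs. That run therefore does not bear on the calls of members.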

Additional observations from a re-analysis of the deposited data

Results flagged for a closer look

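The results below were picked out because the lines of a knockout differed from each other by edgeR's test of the difference itself, line #1 minus line #2 (adjusted p under 0.05). In MCTS1 KO mRNA these log2 differences were -0.19 for COX4I1, -0.27 for COX5A, -0.22 for COX5B, 0.21 for COX6A1, -0.33 for COX7C, -0.34 for ATP5F1B, -0.23 for UQCRFS1, -0.22 for CYC1 and -0.16 for UQCRC1. In MCTS1 KO footprints the difference was -0.22 for UQCRC1. In TCP-seq it was -0.57 for COX5A and -0.44 for COX5B between the eIF2D KO lines, and 0.52 for COX6A1 between the MCTS1 KO lines. The 9 mRNA differences held in each fit that left out 1 library, and the other 4 did not. Each line has 2 libraries per assay, and the difference between lines cannot be told apart from the difference between their cultures or library preparations. The MCTS1 KO lines also differed in sequencing depth, which cannot be told apart from line either.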

How the results depend on the processing

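No called change of a member reversed in any alternative run. Members called, by comparison, ranged over fits that left out 1 library from 3 to 6 (MCTS1 KO mRNA), 0 to 3 (MCTS1 KO footprints), 0 to 2 (MCTS1 KO translational efficiency), 1 to 5 (DENR siRNA mRNA), 1 to 4 (DENR siRNA footprints), 0 to 0 (DENR siRNA translational efficiency), 1 to 7 (siControl mRNA), 0 to 2 (siControl footprints), 0 to 0 (eIF2D KO TCP-seq), 0 to 4 (MCTS1 KO TCP-seq), 0 to 3 (eIF2D-V5 against MCTS1-V5 and DENR-V5), 2 to 2 (eIF2D-V5 against unselected) and 0 to 3 (MCTS1-V5 and DENR-V5 against unselected). Where a group kept 1 library, its spread was taken from the other groups. DESeq2 called 1 member in MCTS1 KO footprints (COX8A), 1 in MCTS1 KO TCP-seq (COX5A) and 0 in eIF2D-V5 against MCTS1-V5 and DENR-V5. Without the filter on low counts 1 was called in MCTS1 KO footprints and 0 in MCTS1-V5 and DENR-V5 against unselected. With library totals alone 2 were called in eIF2D-V5 against MCTS1-V5 and DENR-V5, and 1 in MCTS1-V5 and DENR-V5 against unselected, which was also 1 with WT replicates 1 and 2 only and 4 with replicates 3 and 4 only. The cause was not tested.

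Counts over all transcripts also moved. Without 1 library they ran, lowest to highest, from 2535 (MCTS1 KO #2 replicate 2) to 15372 (WT replicate 2) in MCTS1 KO footprints, 417 (WT RNA-seq replicate 1) to 4854 (WT Ribo-seq replicate 2) in MCTS1 KO translational efficiency, 14731 (siControl replicate 1) to 40736 in DENR siRNA mRNA, 5728 (siControl replicate 2) to 11593 in DENR siRNA footprints, 139 (siControl RNA-seq replicate 1) to 766 (siDENR #1 RNA-seq replicate 2) in DENR siRNA translational efficiency, 187 (WT replicate 2) to 1032 in eIF2D KO TCP-seq, 2490 (WT replicate 3) to 7633 in MCTS1 KO TCP-seq, 802 (eIF2D-V5 replicate 2) to 4607 (MCTS1-V5 replicate 2) in eIF2D-V5 against MCTS1-V5 and DENR-V5, 3620 (eIF2D-V5 replicate 2) to 16574 in eIF2D-V5 against unselected, and 19373, 26580, 6475 and 5546 at the lowest in MCTS1 KO mRNA (WT replicate 2), siControl mRNA (WT replicate 2), siControl footprints (siControl replicate 2) and MCTS1-V5 and DENR-V5 against unselected (MCTS1-V5 replicate 2). The shares of all transcripts called that stand beside the members' counts move with these. DESeq2 called 19290 against 32826 by edgeR in MCTS1 KO mRNA, 4229 against 7037 in MCTS1 KO footprints, 6342 against 11348 in DENR siRNA footprints, 23378 against 41301 and 4831 against 10301 in siControl mRNA and footprints, 35 against 823 in eIF2D KO TCP-seq, 2225 against 7054 in MCTS1 KO TCP-seq and 1017 against 2682 in eIF2D-V5 against MCTS1-V5 and DENR-V5. With no filter the last became 4139 and with the block 4500, and MCTS1 KO translational efficiency became 1681 against 948. With all 4 WT libraries eIF2D KO TCP-seq became 2218. Against WT replicates 1 and 2 or 3 and 4 alone, eIF2D-V5 became 7096 and 6542 against 12594, and MCTS1-V5 and DENR-V5 3384 and 5191 against 8430. Library totals gave 1724 higher and 710 lower against 1551 and 1131 in eIF2D-V5 against MCTS1-V5 and DENR-V5, with the median of all transcripts at 0.18, and 39824 higher and 22781 lower against 30166 and 30289 between the MCTS1 KO lines in mRNA.

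The labels do not say that same-numbered libraries share a culture or batch. With only 2 numbers their deviations correlated at -0.0709 to 0.0926 in RNA-seq and Ribo-seq and 0.0912 to 0.343 in Sel-TCP-seq. With the replicate number as a block, 3 members were called in eIF2D-V5 against MCTS1-V5 and DENR-V5 (ATP5F1B, COX6A1 and COX7C) and 3 in footprints between the MCTS1 KO lines (COX5B, CYC1 and UQCRC1, against UQCRC1 alone), and the counts of members in the other averaged comparisons stayed as without the block. No paired analysis was possible for MCTS1 KO TCP-seq because its WT libraries carry other numbers. Depth limits Sel-TCP-seq and TCP-seq most, where members had as few as 7 and 28 counts.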
